A study of Mus musculus with 371 samples.

Results

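The genes of the NF-kB transcription factor family, their inhibitors and the feedback gene Tnfaip3 were examined in single T cells from B16F10 melanoma tumours of C57BL/6 mice. All 10 genes were present in the deposited expression table of 23362 genes: the 5 subunit genes Nfkb1, Nfkb2, Rel, Rela and Relb, the inhibitor or inhibitor-like genes Nfkbia, Nfkbid, Nfkbiz and Bcl3, and Tnfaip3. The genes were chosen by name after earlier results of these cells were known, in which the CD4 difference of Nfkbia and Nfkbid was already in view, so the differences between genotypes below are descriptions of measured levels and carry no test. B16F10 is a transplantable mouse melanoma line. Tumour-infiltrating CD8 and CD4 T cells were sorted 1 per well from wild-type mice (WT) and from mice labelled as knockout of Il27ra (KO), which encodes a chain of the receptor for the cytokine interleukin-27, and each cell was profiled by Smart-seq2, a full-length cDNA method. No treatment, age, sex, allele or time after tumour implantation is given in the sources used here. Cells were selected on the number of genes at 1 FPKM or above (fragments per gene, scaled for transcript length and library depth), with at least 1000 required. This kept 90 of 94 WT and 86 of 90 KO CD8 cells, and 85 of 94 WT and 89 of 93 KO CD4 cells, 350 in all. CD4 cells were further divided by Foxp3, the transcription factor of regulatory T cells, at 1 FPKM into 46 WT and 35 KO cells with the transcript and 39 WT and 54 KO cells without it.

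Every sample name carries the same number, 3, beside the genotype, and a pool name that is shared within a group and differs between the 4 groups, so each group was treated as 1 sorted pool. The names also carry a mark, p1 in both CD8 pools and p2 in both CD4 pools, whose meaning the labels do not give. Cells of a pool are not replicates of a genotype. Pool and genotype cannot be told apart, and neither can the sort and the p1 or p2 mark. No p-value or standard error between groups was computed. The median number of genes detected per CD8 cell was 2148 in WT and 1955 in KO. Per CD4 cell it was 1661 in WT and 1868 in KO. The KO pool thus had fewer detected genes per cell in CD8 and more in CD4. Il27ra itself was detected in 51.1% of WT and 53.5% of KO CD8 cells and in 50.6% of each CD4 pool. A gene-level FPKM does not show which part of a gene was read, and these values therefore do not check the genotype labels. The sorts matched the lineage transcripts Cd4 and Cd8a, and Cd8b1 less closely. Cd4 reached 1 FPKM in 0 of 90 WT and 0 of 86 KO CD8 cells. This allows a share of up to 3.33% and 3.49% (3 counts over the number of cells). Among CD4 cells, Cd4 reached 1 FPKM in 87.1% of WT and 87.6% of KO cells. Cd8a was detected in 2 of 85 WT and 1 of 89 KO CD4 cells. The CD4 pools held more cells at 1 FPKM or above for Cd8b1, 21 (WT, 24.7%) and 19 (KO, 21.3%). The median over those cells was 2.13 (WT) and 2.95 FPKM (KO), and the highest values were 758.76 and 583.73. Lineage transcripts matched the sort in 83 (WT) and 84 (KO) CD8 cells, and in 68 (WT) and 71 (KO) CD4 cells. Foxp3 was detected in 0 of 90 WT and 4 of 86 KO CD8 cells. Cells with 2 or more markers of 1 other cell type at 10 FPKM numbered 14 (WT) and 9 (KO) among CD8 cells and 8 (WT) and 10 (KO) among CD4 cells. They were kept in the main comparisons, among them 1 KO CD4 cell without Foxp3 with summed erythroid transcripts of 1.01e+06 FPKM. At 1 FPKM the melanoma gene Tyr was found in 95.3 to 100% of the cells of a pool, and the neutrophil marker Cxcr2 in 85.9 to 91.1%. Detection at 1 FPKM thus need not mark a cell type.

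NF-kB factors are dimers of the 5 subunits. In a resting cell most dimers are held in the cytoplasm by inhibitors of the IkB family, of which IkB-alpha, made from Nfkbia, is the best known. Signals from the T cell receptor and from TNF family receptors activate the IKK kinases, IkB-alpha is degraded, and freed dimers enter the nucleus. Nfkbia and Tnfaip3, which encodes the ubiquitin-editing enzyme A20, are themselves direct NF-kB target genes and form negative feedback on the pathway. Nfkbid, Nfkbiz and Bcl3 encode nuclear, atypical IkB proteins that act on gene transcription with NF-kB subunits, and Nfkbid product is known to take part in Foxp3 induction. Nfkb2 and Relb products form the main dimer of the non-canonical pathway.

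The feedback genes carry matches to the kappaB consensus, the 10-base motif bound by NF-kB dimers, near their starts. The motif was searched on both strands, with overlapping matches merged, in RefSeq promoter windows of 300 bases (250 before and 50 after each start, GRCm38.p6). Windows were given for 7 of the 10 genes, and not for Nfkb1, Relb and Nfkbiz. A match was present in 6 of these 7 genes, all but Rela, against 9.55% of all 27025 genes with a window. Counted by window, 8 of 12 windows of these genes and 8.46% of all 32851 windows held a match. The stretches upstream of Nfkbia and Nfkbid, the genes with the highest CD4 differences below, are shown 5′ to 3′ on the gene's strand, with the matches in capitals.
Nfkbia, chr12:55492648-55492797, minus strand: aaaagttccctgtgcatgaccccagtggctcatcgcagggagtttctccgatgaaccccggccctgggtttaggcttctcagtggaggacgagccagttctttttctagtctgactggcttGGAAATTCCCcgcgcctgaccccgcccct
Nfkbid, chr7:30422156-30422305, plus strand: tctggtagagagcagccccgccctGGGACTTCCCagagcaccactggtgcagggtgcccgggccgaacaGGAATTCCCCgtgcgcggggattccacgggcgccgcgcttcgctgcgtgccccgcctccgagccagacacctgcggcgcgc
The Nfkbia match begins 29 bases before the annotated start. The Nfkbid matches both lie before its RefSeq start, the nearer beginning 181 bases away, within the longer gene span given by GENCODE but outside its annotated coding and untranslated sequence. Shorter contexts of the matches upstream of Tnfaip3 (the nearer at 12 bases before the start), of Rel (92 bases) and in 1 of the windows of Nfkb2 (39 and 11 bases) are shown to set the feedback gene beside subunit genes that also carry the motif. These distances are to the RefSeq starts. The sites shown for Tnfaip3 and Nfkb2 also lie within the longer gene spans given by GENCODE, and the Rel site lies outside its span.
Tnfaip3, first site: actcacgcgGGGACACCCCggggcggga
Tnfaip3, second site: atttccatcGGAAATCCCCctgttggca
Rel: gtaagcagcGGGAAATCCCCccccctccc
Nfkb2, first site: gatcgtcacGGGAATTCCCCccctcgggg
Nfkb2, second site: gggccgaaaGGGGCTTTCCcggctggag
The other windows of Nfkb2 hold further matches, which are not shown. The presence of these letters describes the window only. No binding was measured in these cells.

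On the FPKM scale, which is per length and allows genes to be set side by side, Nfkbia and Tnfaip3 had the highest and second highest mean level of the 10 genes in all 4 pools. Nfkbia averaged 436 FPKM in the WT and 386 in the KO pool of CD8 cells, and 1048 in the WT and 1728 in the KO pool of CD4 cells. Tnfaip3 averaged 317.66, 348.18, 397 and 674 FPKM in the same order. The other 8 genes had means between 5.30 FPKM (Bcl3, KO CD8) and 236.73 FPKM (Nfkbiz, KO CD4). Among the subunits, Nfkb2 had the highest mean in every pool, from 62.3 FPKM in KO CD8 to 126.50 in WT CD4, with Rela in KO CD8 (61.7) almost level with it. Nfkb1 had the lowest subunit mean in every pool, from 19.2 to 36.9 FPKM. The summed mean level of the 5 inhibitor and feedback genes was 2.86 (WT) and 4.33 times (KO) that of the 5 subunits in CD8 cells, and 5.36 (WT) and 9.57 times (KO) in CD4 cells. The subunit sums of WT CD8, WT CD4 and KO CD4 were close, at 300.2, 315.36 and 300.5 FPKM. The inhibitor and feedback sums were 860, 1690 and 2875 FPKM. In KO CD8 the subunit sum was lower, at 196.3 FPKM, and the inhibitor and feedback sum was 850. Between the CD8 pools the inhibitor and feedback sums were thus nearly level, and the subunit sums differed. These sums set side by side transcripts of genes with unlike roles and measure no inhibition.

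Most of these transcripts were either absent from a cell or well above the threshold. Nfkbia lay between 1 and 10 FPKM in 6 of the 350 cells, and Tnfaip3 in 8. Nfkbiz had the most such low values, in 29 cells. A difference in mean log2 level between pools can thus hold a difference in the share of cells with the transcript, in the level within those cells, or both, and a missing transcript cannot be told apart from one that was not captured.

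**Figure D1:**
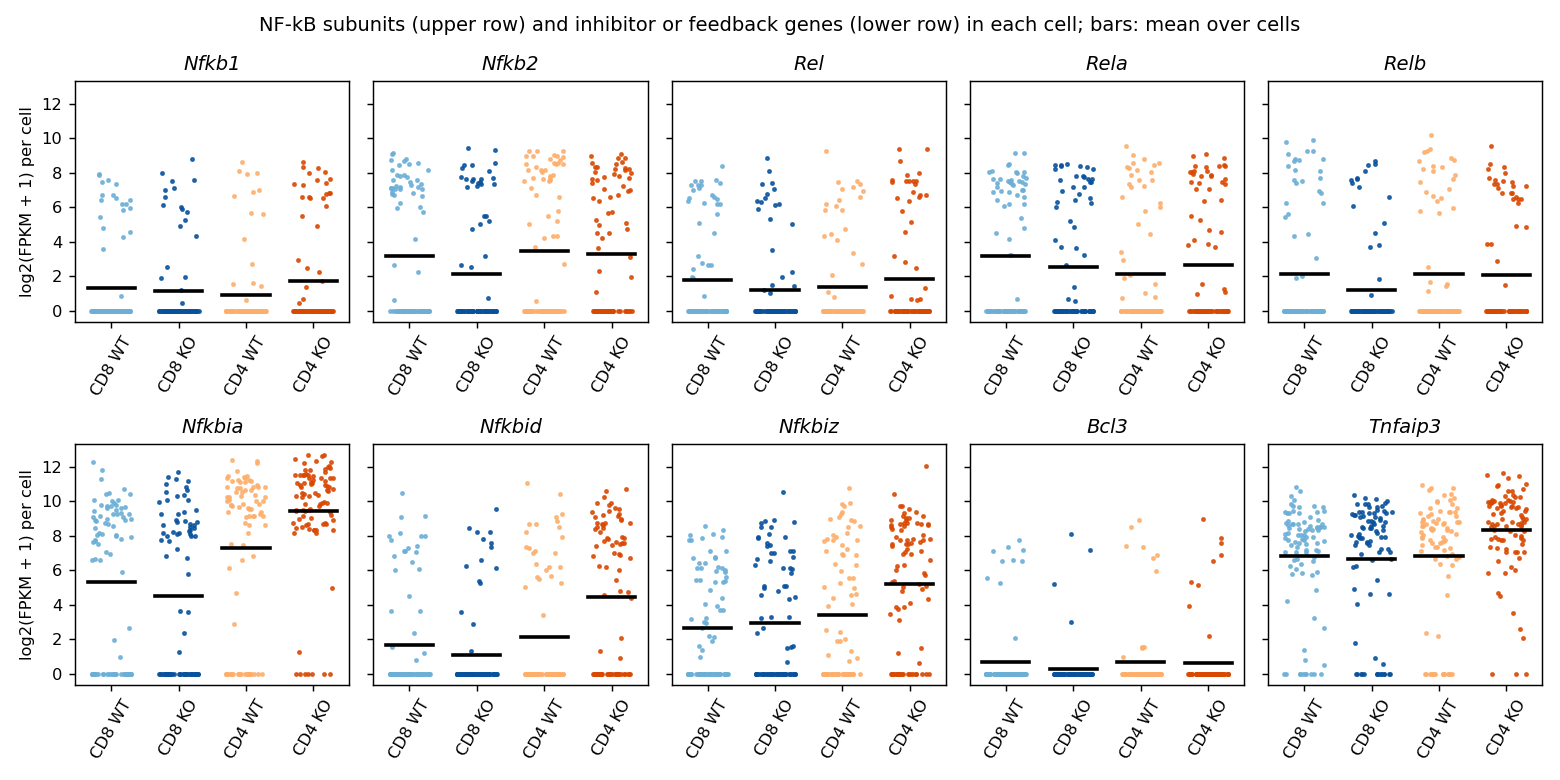
Each point is 1 cell and gives log2(FPKM + 1) of the named gene (y axis) in the WT and KO pools of the CD8 and CD4 sorts (x axis); black bars are means over cells. For Nfkbia and Tnfaip3 nearly all KO CD4 cells lie in the upper cloud, while the other pools keep a larger group of cells at 0, and for the subunits cells at 0 are frequent in all 4 pools.

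Genotypes were compared by the difference, KO minus WT, in mean log2(FPKM + 1), with the mean taken over cells, and a size of 1 was used to count genes. On this scale the difference mixes the share of cells with the level in them. Measured genes are those present in 20% or more of the cells on either side of a comparison. Bcl3 passed this filter in 2 of the 8 comparisons, those of Foxp3-positive KO cells, and the other 9 genes passed in all 8.

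In CD4 cells, the inhibitor or inhibitor-like genes Nfkbia, Nfkbid and Nfkbiz and the feedback gene Tnfaip3 had higher means in the KO pool. No subunit reached a difference of 1 in either direction. Nfkbia ranged from 0 to 5362 FPKM with a median of 754 over 85 WT CD4 cells, and from 0 to 6596 with a median of 1271 over 89 KO CD4 cells. It was detected in 63 of 85 WT (74.1%, exact 95% binomial interval 63.5 to 83.02) and 82 of 89 KO cells (92.1%, 84.5 to 96.8). The WT range lay within the KO range, which reached higher. The KO cells differed mainly in how few of them had no detected Nfkbia. The difference in mean log2 level was 2.11, and among cells that had the transcript it was 0.37. These intervals, like all intervals of shares here, cover counting error only and not the spread between mice.

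Nfkbid had the highest difference of the 10 genes in CD4, 2.31. Its median was 0 FPKM in WT and 42.7 in KO CD4 cells, and its highest value 2125 in WT and 1672 in KO. It was present in 25 of 85 WT cells (29.4%, interval 20.02 to 40.3) and 51 of 89 KO cells (57.3%, 46.4 to 67.7). Mean Nfkbid was 94.7 FPKM in WT and 222.98 in KO, a ratio of 2.36. The WT mean included the single highest cell of all pools, and the order of the pools was the same by median and by share.

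Nfkbiz transcripts were present in 45 of 85 cells of the WT CD4 pool (52.9%, 41.8 to 63.9) and 65 of 89 of the KO CD4 pool (73.03%, 62.6 to 81.9), intervals that overlap. Its median was 2.70 FPKM in WT and 78.4 in KO cells, the highest values were 1711 and 4168, and the difference in mean log2 level was 1.80. Tnfaip3 was present in 70 of 85 WT (82.4%, 72.6 to 89.8) and 86 of 89 KO CD4 cells (96.6%, 90.5 to 99.3). Its median was 274.4 FPKM in WT and 437 in KO cells, with highest values of 1934 and 3120, and the difference in mean log2 level was 1.53. Both genes were thus detected in a larger share of KO than of WT CD4 cells, as Nfkbia and Nfkbid were. Among cells with the transcript the difference was 0.72 for Nfkbiz, 0.48 for Nfkbid and 0.36 for Tnfaip3.

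Ordered among the 3864 genes measured in CD4 cells, Nfkbid stood at rank 9 from the highest difference, Nfkbia at 17, Nfkbiz at 44 and Tnfaip3 at 90. Of the 9 members measured, 4 were higher by 1 or more, a size that 9.91% of all measured genes reached in that direction, and 0 were lower, a size reached by 0.983% of genes. The median difference was 0.83 over the members and 0.23 over all measured genes. Because the genes were picked with the CD4 difference known, these counts carry no evidence of their own.

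The subunit transcripts in CD4 cells were less different between the pools. Nfkb1, the gene of the p105 precursor of p50, was present in 16.5% of WT and 28.1% of KO CD4 cells, a difference of 0.83 in mean log2 level. Rela, the main activating subunit, was found in 32.9% and 40.4% (difference 0.56), and Rel, a subunit prominent in lymphocytes, in 24.7% and 28.1% (0.46). Nfkb2 was found in 47.1% and 49.4%, with a lower mean level in KO (91.7 against 126.50 FPKM, difference -0.21). Relb was found in 31.8% and 31.5%, with means of 81.1 FPKM in WT and 49.2 in KO (difference -0.05). All 5 pairs of share intervals overlapped. Bcl3, found in 10 of 85 WT and 9 of 89 KO CD4 cells, was too rare to be counted as measured.

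**Figure D2:**
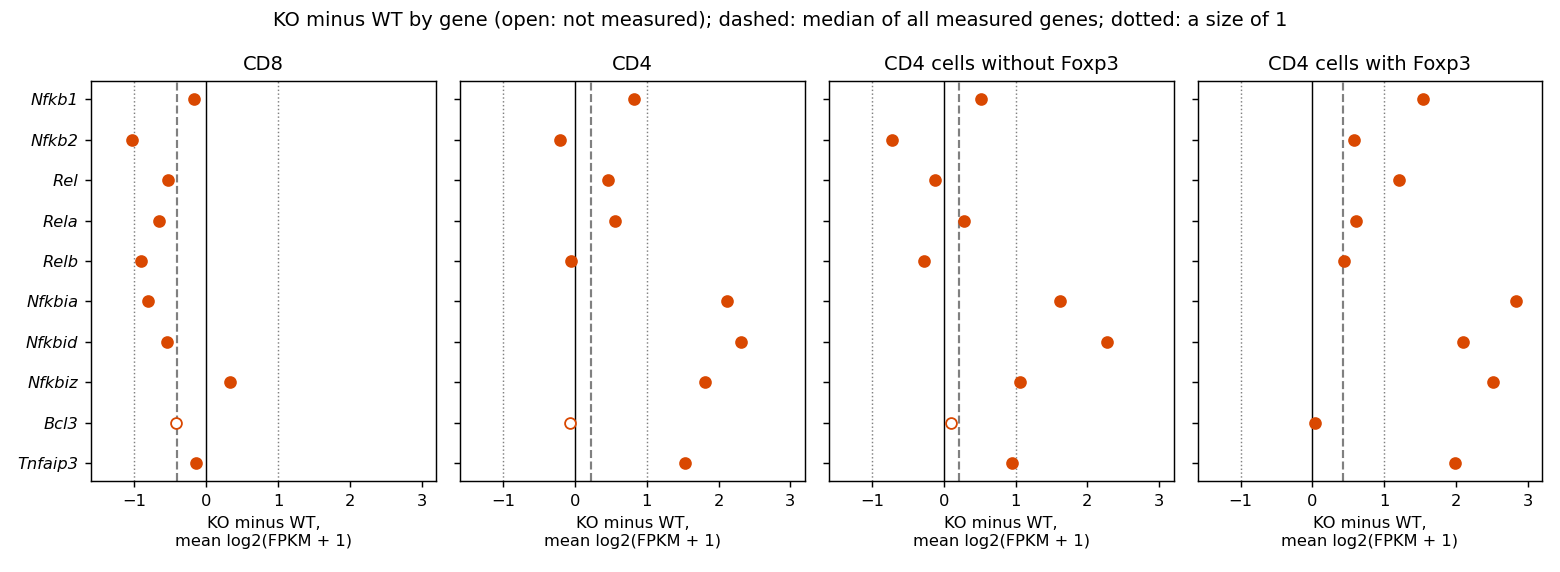
Each point is the KO minus WT difference in mean log2(FPKM + 1) (x axis) of 1 gene (y axis) in CD8 cells, CD4 cells, and CD4 cells without and with Foxp3; open points are genes below the detection filter, the dashed line is the median of all measured genes and dotted lines mark a size of 1. In both CD4 subsets Nfkbia, Nfkbid and Nfkbiz lie above 1, whereas in CD8 cells 8 of the 9 measured genes lie below 0 and Nfkbiz lies at 0.33.

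In CD8 cells the members did not show the CD4 pattern. Of 9 members measured, 0 were higher by 1 or more, as were 0.555% of the 4686 measured genes, and 1 was lower by 1 or more, as were 13.3% of all genes. The median difference was -0.54 over the members and -0.40 over all genes, so the members lay near the general shift. Nfkb2 was the 1 member past this size, present in 44.4% of WT and 31.4% of KO CD8 cells with a difference of -1.03. It was at -0.26 when cells were weighted so that both pools counted alike in each class of the number of detected genes. This weighting, below called equal numbers of or equal weights over detected genes, used broad classes, the highest without an upper limit. Cells within a class could still differ in that number. Relb followed at -0.91, present in 27 of 90 WT and 16 of 86 KO cells, with means of 83.6 and 29.7 FPKM. Nfkbia was found in 55 of 90 WT (61.1%, 50.3 to 71.2) and 46 of 86 KO CD8 cells (53.5%, 42.4 to 64.3), with medians of 198.6 and 11.3 FPKM, highest values of 4905 and 3260, and a difference of -0.81. Nfkbid was found in 25.6% and 17.4% (difference -0.54), Rela in 45.6% and 38.4% (-0.65), Rel in 31.1% and 24.4% (-0.53), Nfkb1 in 21.1% and 20.9% (-0.17) and Tnfaip3 in 86.7% and 81.4% (-0.15). Nfkbiz alone of the measured members had a higher mean log2 level in KO CD8 cells, with a difference of 0.33 at nearly equal shares of 48.8% and 48.9% and means of 80.7 FPKM in KO and 41.5 in WT. On the linear scale the KO mean was also the higher for Tnfaip3, as given above, and nearly level for Nfkb1 (20.8 and 20.6 FPKM). The opposite signs of Nfkbia, Nfkbid and Rela in CD8 and CD4 are set out in the closing section, and the difference between the sorts was not tested.

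The CD4 pools differed in their share of Foxp3-positive cells, 46 of 85 in WT and 35 of 89 in KO, so the comparison was repeated within each subset. In Foxp3-negative cells Nfkbid differed by 2.27 (33.3% of 39 WT and 61.1% of 54 KO cells), Nfkbia by 1.62 (76.9% and 90.7%) and Nfkbiz by 1.07 (58.97% and 72.2%). Tnfaip3 differed by 0.96 (84.6% and 94.4%). Thus 3 of 9 measured members were higher by 1 or more, beside 13.5% of the 3426 genes measured there, and 0 were lower, beside 3.15%. The members' median was 0.52 and that of all genes 0.21.

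In Foxp3-positive cells the differences extended to 2 subunits. Nfkbia differed by 2.83 (71.7% of 46 WT and 94.3% of 35 KO cells), Nfkbiz by 2.52 (47.8% and 74.3%), Nfkbid by 2.10 (26.1% and 51.4%) and Tnfaip3 by 1.98 (80.4% and 100%). Tnfaip3 was present in all 35 KO cells, the lowest at 5.09 FPKM. Nfkb1 differed by 1.54, with means of 21.4 FPKM in WT and 65.9 in KO, and Rel by 1.21, with means of 13.7 and 57.2. Of 10 measured members 6 were higher by 1 or more, where 21.5% of 4894 genes were, and 0 were lower, where 2.31% were. The KO cells had more detected genes here, with a median of 2152 against 1884 in WT. All genes had a median difference of 0.42, against 1.37 for the members. In the same comparison 9 of 14 measured immediate early genes, which respond within minutes to stimulation and to handling, were higher by 1 or more (median 1.43), as were 4 of 8 heat shock genes (median 1.02), and 0 of either list were lower. Their part in the differences of the members was not tested. Weighted to equal numbers of detected genes, Nfkb1 differed by 1.10 and Rel by 0.75, while Nfkbia, Nfkbiz, Tnfaip3 and Nfkbid differed by 2.51, 2.27, 1.89 and 1.50.

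**Figure D3:**
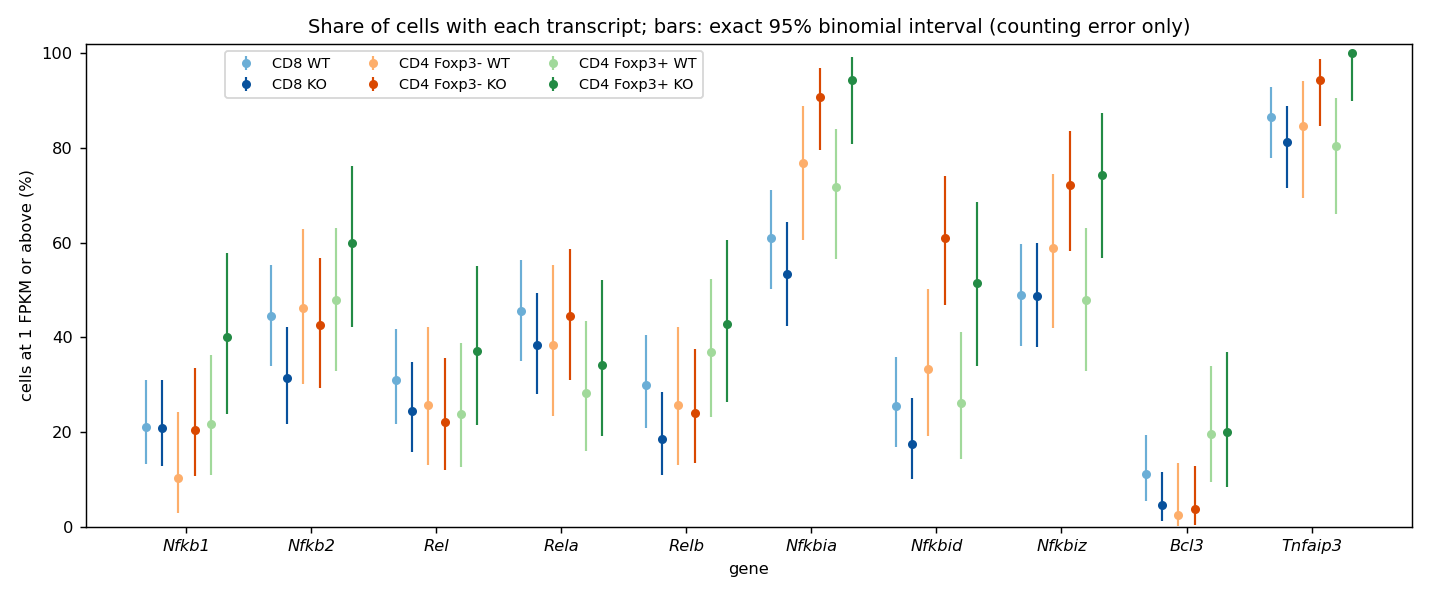
Points give the percentage of cells at 1 FPKM or above (y axis) for each gene (x axis) in 6 classes of cells, with exact 95% binomial intervals as bars. For Nfkbia, Nfkbid and Nfkbiz the KO points of both CD4 subsets are above their WT points, Bcl3 is near 20% in Foxp3-positive cells and under 5% in Foxp3-negative cells of both genotypes, and the CD8 points of KO are at or below those of WT.

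The number of detected genes moves with the chance of finding any transcript, so the CD4 cells were also divided by it. With 1000 to under 1500 genes, 22.6% of 31 WT and 28.6% of 14 KO cells had Nfkbid. With 1500 to under 2000 genes the shares were 31.03% of 29 WT and 63.2% of 38 KO cells, with 2000 to under 3000 they were 33.3% of 18 and 60.7% of 28, and with 3000 or more 42.9% of 7 and 66.7% of 9. Nfkbia was present in 54.8% of WT and 78.6% of KO cells in the lowest class, in 86.2% and 92.1% in the next, in 83.3% and 96.4% in the third and in 85.7% and 100% in the highest. Both transcripts were thus more frequent in KO cells in each of the 4 classes, with intervals that overlap for every class of each gene. For Nfkbiz and Tnfaip3 the same held in the upper 3 classes, and in the lowest class the shares were 51.6% and 50% for Nfkbiz and 74.2% and 78.6% for Tnfaip3. Weighted to equal numbers of detected genes over all CD4 cells, the differences were 1.93 for Nfkbid, 1.68 for Nfkbiz, 1.60 for Nfkbia and 1.25 for Tnfaip3, beside a median over all genes of 0.03.

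**Figure D4:**
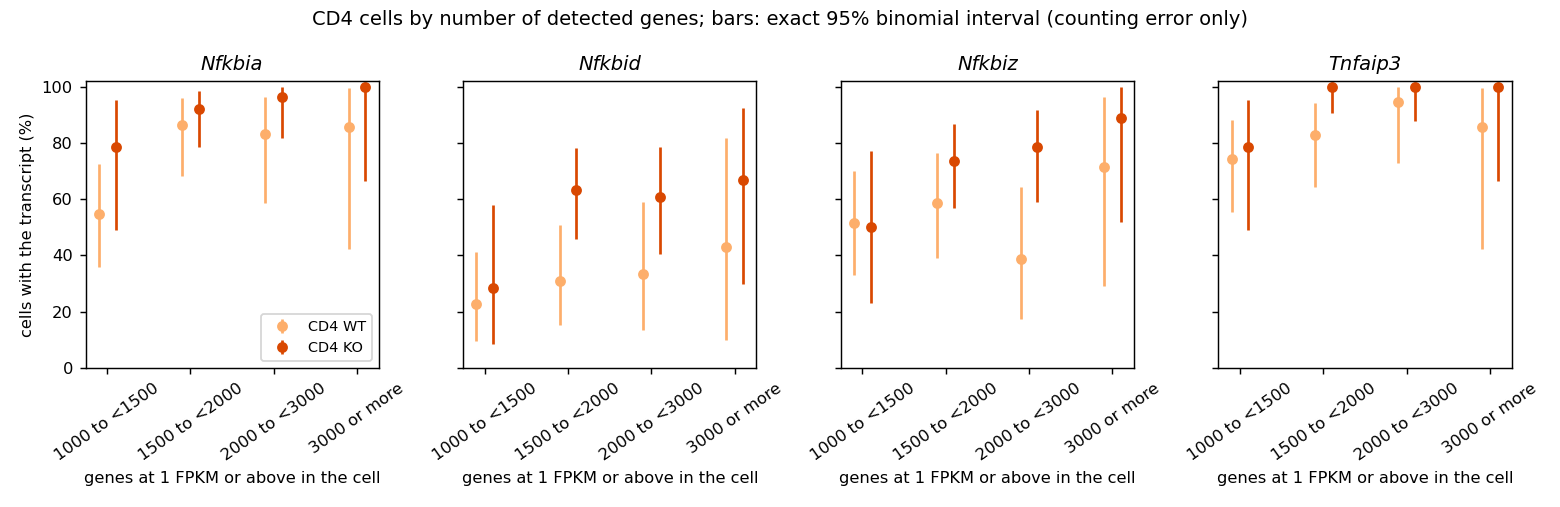
Percentage of CD4 cells with the transcript (y axis) by the number of genes detected in the cell (x axis), for WT and KO, with exact 95% binomial intervals as bars. Nfkbia and Nfkbid are found in a larger share of KO than of WT cells in all 4 classes, and the intervals are wide in the highest class, which holds 7 WT and 9 KO cells.

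The inhibitor and feedback transcripts were also found together in more KO CD4 cells. At least 4 of the 5 were present in 44 of 89 KO CD4 cells (49.4%, interval 38.7 to 60.2), 15 of 85 WT CD4 cells (17.6%, 10.2 to 27.4), 15 of 90 WT CD8 cells (16.7%, 9.64 to 25.995) and 9 of 86 KO CD8 cells (10.5%, 4.90 to 18.9). The KO CD4 interval lies above the other 3. This count follows in part from the single-gene shares given above, and it was not weighted for the number of detected genes. Like those shares, it comes from genes picked with the CD4 difference known. The share was nearly the same in the KO cells with Foxp3 (17 of 35, 48.6%) and without it (27 of 54, 50%), and in WT it was 19.6% and 15.4%. Of the 5 subunits, 4 or more were present in 13.3% (WT) and 5.81% (KO) of CD8 cells and in 4.71% (WT) and 13.5% (KO) of CD4 cells. The subunits were thus also found together in a larger share of KO than of WT CD4 cells, with intervals that overlap (1.30 to 11.6 and 7.17 to 22.4).

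**Figure D5:**
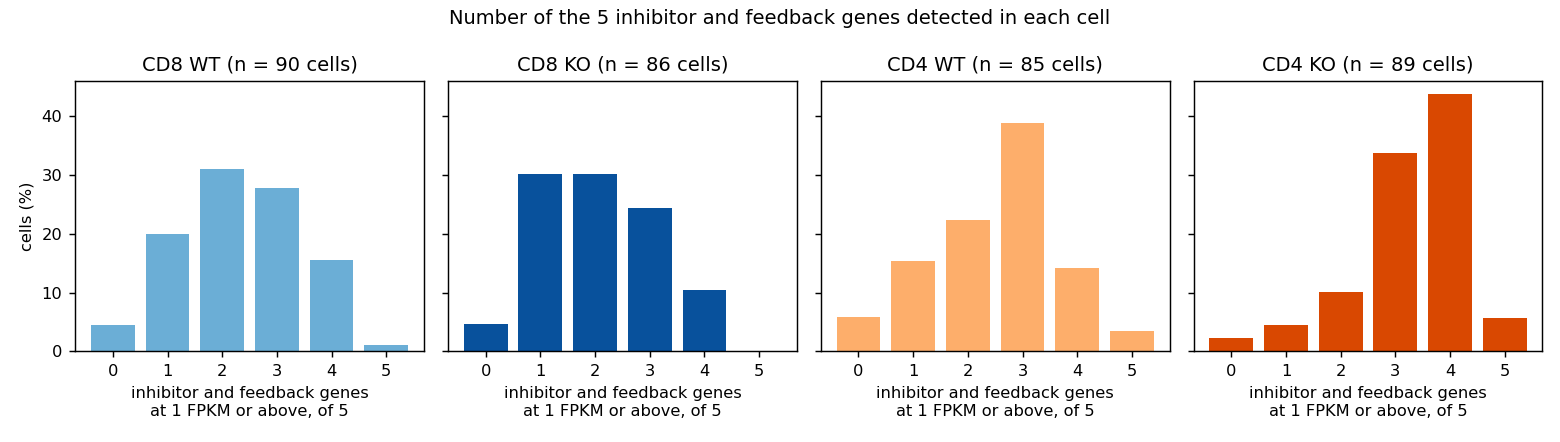
Bars give the percentage of cells (y axis) by the number of the genes Nfkbia, Nfkbid, Nfkbiz, Bcl3 and Tnfaip3 detected in the cell (x axis). In KO CD4 cells the most frequent number is 4, in 43.8% of cells, against 3 in WT CD4 cells (38.8%).

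Foxp3-positive and Foxp3-negative cells of the same pool were then compared. Foxp3 split the cells and is no result. Bcl3, which in other settings is an NF-kB co-regulator of T cell differentiation, was found in 9 of 46 Foxp3-positive and 1 of 39 Foxp3-negative WT cells, and in 7 of 35 and 2 of 54 KO cells. The exact intervals were 9.36 to 33.9% and 0.0649 to 13.5% in WT, and 8.44 to 36.9% and 0.452 to 12.7% in KO, which overlap in each genotype. The Foxp3-positive cells had more detected genes in both pools, with medians of 1884 against 1547 in WT and 2152 against 1747 in KO.

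Among the other members the pools differed. In WT, 0 of 9 measured members were higher by 1 or more in Foxp3-positive cells, where 23.9% of 3850 genes were, and 3 were lower, where 4.81% were: Tnfaip3 by -1.18 (means 274.4 and 542 FPKM), Nfkbiz by -1.13 (88.1 and 186.3) and Rela by -1.03 (38.95 and 93.9). With Foxp3 called at 10 FPKM, which moved a single cell to the other class, these 3 differences were -0.86, -0.97 and -0.93. The members' median was -0.38 and that of all genes 0.42. Immediate early genes were also lower in these cells, 7 of 13 by 1 or more with 1 higher and a median of -1.10, and their part was not tested. In KO, 4 of 10 members were higher by 1 or more, beside 30% of 4849 genes, and 0 were lower, beside 2.35%. These were Nfkb1 (1.67, found in 40% and 20.4%), Nfkb2 (1.30, 60% and 42.6%), Relb (1.09, 42.9% and 24.1%) and Nfkbia (1.07, 94.3% and 90.7%). The median was 0.90 for the members and 0.60 for all genes. With equal weights over the number of detected genes the KO differences of the same genes were 0.84, 0.35, 0.43 and 0.82, none of them past 1. The members' share past 1 in KO was close to that of all genes.

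Against CD8 cells of the same genotype, Foxp3-negative CD4 cells had higher means of Nfkbia and Nfkbiz in WT, and of these and Nfkbid and Tnfaip3 in KO. These comparisons run across the p2 and p1 marks. In WT cells Nfkbia differed by 2.03, rank 7 of 4687 genes, and Nfkbiz by 1.41, rank 20, although CD4 cells had fewer detected genes. All genes had a median difference of -0.73. Mean Nfkbia was 959 FPKM in WT Foxp3-negative CD4 and 436 in WT CD8 cells, and mean Nfkbiz 186.3 and 41.5. Thus 2 of 9 measured members were higher by 1 or more, against 0.875% of all genes, and 0 were lower, against 35.2%. With equal weights over detected genes Nfkbia differed by 3.06 and Nfkbiz by 0.50. The members' median was 0.31. Nfkbid differed by 0.89 and Tnfaip3 by 0.63, Bcl3 was below the filter at -0.51, and Nfkbib, the gene of IkB-beta, differed by -1.49. Immediate early genes were higher as well, 8 of 13 by 1 or more with a median of 1.31, whereas 7 of 8 T cell markers and 5 of 8 heat shock genes were lower by 1 or more. The part of these lists was not tested.

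In KO cells 4 of 9 were higher by 1 or more, against 3.86% of 3679 genes, and 0 were lower, against 8.45%. Nfkbia differed by 4.46, rank 2, with means of 1471 FPKM in Foxp3-negative CD4 and 386 in CD8 cells. Nfkbid differed by 3.70, rank 3, found in 61.1% and 17.4% of cells, and passed the filter through the CD4 side only. Nfkbiz differed by 2.14, rank 14, and Tnfaip3 by 1.74, rank 23. The subunits lay between -0.08 for Nfkb1 and 0.61 for Nfkb2, beside a median over all genes of -0.20. Of the immediate early genes 6 of 13 were higher and 0 lower (median 0.93), and of the T cell markers 5 of 8 were lower. The comparisons share pools with those between genotypes and are not independent of them.

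Other genes of the pathway were read from lists of receptors, kinases, adaptors, regulators and targets. Between the CD4 pools, 9.91% of all measured genes were higher by 1 or more and 0.983% were lower. In KO against WT CD4 cells, 0 of 3 measured IKK and related kinase genes, 0 of 17 adaptor and ligase genes and 0 of 7 other negative regulators reached a size of 1 in either direction, and neither did the 2 other IkB genes. Of 10 measured receptor genes 4 were higher and 1 was lower: the interleukin-18 receptor genes Il18r1 (1.96, found in 56.2% of KO and 30.6% of WT cells) and Il18rap (1.55), the co-stimulatory receptor Cd28 (1.21), the interleukin-33 receptor gene Il1rl1 (1.21, named after its value was seen), and Cd27 (-1.48). Of 2 ligand genes Cd40lg was higher (1.16) and Ltb, a lymphotoxin chain, lower (-1.16). Il1rl1 (28.1% of KO and 5.88% of WT cells), Il18rap (38.2% and 10.6%) and Cd40lg (33.7% and 16.5%) passed the filter through the KO pool only. The filter favours counting such genes as higher. Of 18 measured NF-kB target genes 2 were higher and 0 lower: Bcl2a1b, of the anti-apoptotic A1 family whose near-identical copies share reads, by 1.81, and the stress-response gene Gadd45b by 1.52. The median of the target list was 0.28, close to the 0.23 of all genes.

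In KO against WT CD8 cells, the target list had 0 of 17 genes higher and 5 lower by 1 or more, with a median of -0.45 against -0.40 for all genes. Its lowest were Traf1 (-1.31), Bcl2a1b (-1.25) and Bcl2a1d (-1.22). The 2 receptor genes lower by 1 or more of 7 measured were Tnfrsf9 (-1.96, found in 11.6% of KO and 30% of WT cells) and Tnfrsf18 (-1.67), both TNF family co-stimulators. Of 17 adaptors and ligases 4 were lower, among them Rbck1 (-1.37), Traf1 and Birc2 (-1.06). Tnfrsf9 and Birc2 (11.6% of KO and 31.1% of WT cells) passed the filter through the WT pool only. Nfkbib differed by -1.18. The lists share genes, and Traf1 and Nfkbib are also among the lower genes of the target list. None of these lists had a CD8 gene higher by 1 or more, a size that 0.555% of all measured genes reached in that direction. Of all measured genes 13.3% were lower by 1 or more.

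Immediate early genes had higher means in the KO CD4 pool, beside Nfkbia, Nfkbid, Nfkbiz and Tnfaip3. Of 18 listed, a mean of 7.16 were detected per WT CD8 cell, 7.35 per KO CD8, 7.42 per WT CD4 and 8.91 per KO CD4 cell. In KO against WT CD4, 6 of 13 measured were higher by 1 or more and 0 lower, with a median of 0.89. They were led by Ier2 (2.51), Nr4a1 (2.26) and Btg2 (1.76). Of all genes measured in CD4, 9.91% were higher and 0.983% lower. In CD8 cells 2 of 12 were higher, Ppp1r15a (1.18) and Btg2 (1.09), and 0 lower. Of all genes measured in CD8, 0.555% were higher and 13.3% lower. The CD8 median of the immediate early genes was 0.37, against -0.40 for all genes. Of the measured inhibitor and feedback genes, Nfkbiz differed by 0.33 in CD8, Tnfaip3 by -0.15, Nfkbid by -0.54 and Nfkbia by -0.81. In Foxp3-negative CD4 cells 4 of 13 immediate early genes were higher, beside 13.5% of all genes. Their median there was 0.18, near the 0.21 of all genes. Of the heat shock genes, 1 of 7 was higher and 0 lower in CD4 (median 0.43), and 0 of 8 were higher and 2 lower in CD8 (median -0.73). Of the regulatory T cell genes, which include Foxp3, 2 of 10 were higher and 2 lower in CD4, and of 8 T cell markers 0 were past a size of 1 in CD4 and 1 was lower in CD8. Across cells of a pool, the mean log2 level of the 5 inhibitor and feedback genes correlated with that of the immediate early genes at r = 0.56 (90 WT) and 0.45 (86 KO) for CD8 cells and 0.46 (85 WT) and 0.54 (89 KO) for CD4 cells. The number of detected genes is common to both sides of these values, which were 0.53, 0.43, 0.44 and 0.50 once it was removed. Cells were also weighted to equal numbers of detected immediate early genes, again in broad classes, a choice made after seeing the data. The KO minus WT CD4 differences were then 1.79 for Nfkbid, 1.44 for Nfkbia, 1.18 for Nfkbiz and 1.08 for Tnfaip3. The part of the immediate early genes in these differences beyond this weighting was not tested. Without the cells that carried markers of another type, the same differences were 2.33, 2.24, 2.03 and 1.50.

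The genes whose cell-to-cell pattern was most like each member were ranked by Pearson correlation of log2(FPKM + 1) within each pool, after removing the dependence on the number of detected genes, and averaged over the 4 pools. Only members found in at least 20% of the cells of every pool were used, each against 2557 genes. Nfkbia was most like Ier2 (mean r = 0.32), Junb (0.32) and Tnfaip3 (0.31). Nfkbiz was most like Zfp36 (0.35), Nfkbia (0.31) and Wdr92 (0.27), and Tnfaip3 most like Btg2 (0.33), Junb (0.31) and Nfkbia (0.31). For Nfkb2, Rel and Rela the highest mean correlations were 0.22 (Anxa5), 0.22 (Samsn1) and 0.19 (Arrb2), and their order is not read further at this sparsity. Between members, Nfkbia and Tnfaip3 correlated at 0.54 in KO CD4, 0.39 in WT CD4, 0.19 in WT CD8 and 0.12 in KO CD8 cells. Nfkbia and Nfkbid were found in the same cell in 57.3% of KO CD4 cells, which is every cell that had Nfkbid. They were found together in 27.1% of WT CD4, 18.9% of WT CD8 and 11.6% of KO CD8 cells. The products of their single shares were 52.8%, 21.8%, 15.6% and 9.33% in the same order. Nfkb2 and Relb, partners of the non-canonical dimer, had the highest correlation between subunits, 0.24 on average and 0.05 in WT CD4 cells.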

How the data were processed

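Deposited values are FPKM per gene and cell, normalized between cells by TMM, per the labels and the table's name, which also names RSEM; Bowtie, RSEM and the mm10 build come from the submitters' processing notes, with no versions. No read counts were used, so the depth of each cell is unknown, and the number of genes at 1 FPKM or above stands in its place. Smart-seq2 does not mark strand: reads of Nfkb2 and of its neighbour Psd, and of Bcl3, Nfkb1 and Nfkb2 and noncoding genes that overlap them, cannot be told apart where they overlap. Of 375 columns 4, which are not single cells, were not used, and 4 entries with a repeated symbol were left out.

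Means of log2(FPKM + 1) over cells were compared in 8 pairs of groups, with 1 pool per group and no test. Such a difference understates the change of low genes. Share intervals are exact Clopper-Pearson intervals at 95%. The genes and lists were chosen with earlier results of these data known. Genes named are all members, of each pathway list the 3 highest and 3 lowest past a size of 1 between genotypes in each sort, and the 3 genes most like a member. The calculation was run on simulated constant shifts of log2 values, which checks the arithmetic only. The simulation did not vary capture, depth or pool. Matches and stretches come from RefSeq promoter windows and gene spans from GENCODE. Python 3.11.15, numpy 2.4.6, pandas 2.3.3 and scipy 1.17.1 were used, and 10 planned and 1 added alternative settings were run.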

Additional observations from a re-analysis of the deposited data

Results flagged for a closer look

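In 4 cases a gene differed between KO and WT by at least 0.5 in mean log2(FPKM + 1) in opposite directions in matched sets of cells. Nfkbia differed by -0.81 in CD8 and 2.11 in CD4 cells. Nfkbid differed by -0.54 in CD8 and 2.31 in CD4 cells. Rela differed by -0.65 in CD8 and 0.56 in CD4 cells, beside medians of all genes of -0.40 and 0.23. Within CD4 cells Nfkb2 differed by -0.72 without Foxp3 and 0.58 with it. With 1 pool per group none of these differences between sorts or subsets was tested. The KO pool had fewer detected genes per cell in CD8 and more in CD4, and the part of this in the opposite signs was tested only by weighting cells to equal numbers of detected genes: Nfkbia then differed by -0.22 and 1.60, Nfkbid by -0.18 and 1.93, Rela by -0.30 and 0.30, and Nfkb2 by -1.11 and -0.43.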

How the results depend on the processing

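The CD4 differences between genotypes of Nfkbia, Nfkbid, Nfkbiz and Tnfaip3 stayed at 1 or more under all 10 settings, between 1.44 and 2.71, 1.42 and 3.25, 1.10 and 2.89, and 1.07 and 2.01. The recomputed counts of members that moved by over 1.5 times, 29 in all, follow as numbers of genes past a size of 1, each with the share of all measured genes past it under the same setting, and the cause was not tested. For KO against WT in CD8, where 1 was lower, 3 were with a pseudocount of 0.1 (30.8% of genes) or without cells with other markers (14.1%), 2 with matching lineage transcripts (15.7%), 0 with a pseudocount of 10 (1.79%) or equal weights over detected genes (2.94%), and 1 was higher among cells with at least 2000 genes (2.19%). For CD4 8 instead of 4 were higher among cells with at least 2000 genes (8.06%). In Foxp3-negative CD4 cells 7 were higher (20.7%) and 1 lower (31.2%) among such cells, which are 6 in WT, and 1 was lower with equal weights over detected genes (7.44%). For Foxp3-positive against negative WT cells, where 3 were lower, 6 were with equal weights over detected genes (11.8%), 1 with a pseudocount of 10 (1.82%) or equal weights over immediate early genes (3.82%), and 0 with Foxp3 at 10 FPKM (3.58%). There 1 was higher in rescaled cells (24.1%), with matching lineage transcripts (25.1%) and among cells with at least 2000 genes (31%), where Tnfaip3, Rela and Nfkbiz turned to 0.95, 0.84 and 0.44. In KO, where 4 were higher and 0 lower, 0 were higher with a pseudocount of 10 (10.4%) or equal weights over detected genes (12%), and 2 among cells with at least 2000 genes (32.1%), where Relb turned to -0.45. There 1 was lower with a pseudocount of 0.1 (4.68%), in rescaled cells (3.46%) and with matching lineage transcripts (2.99%), 2 with equal weights over detected genes (7.84%) and 3 among cells with at least 2000 genes (7.91%). For Foxp3-negative CD4 against CD8 cells in WT, 4 instead of 2 were higher with matching lineage transcripts (1.19%), and 1 was lower with a pseudocount of 0.1 (56.3%) and 2 among cells with at least 2000 genes (25.8%), where Tnfaip3 was at -0.36. In KO 7 instead of 4 were higher among such cells (16.7%). Shares of cells left their first interval in 18 of 160 cases. No paired analysis was possible because each group is 1 pool and all pools carry the same number.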
